A study of Mus musculus with 72 samples.

Results

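The comparison described here is GRP + RC against GRP in the ∆Ecad melanoma line 1064, chosen by its treatment labels. It holds 6 of the 72 libraries of the series, 3 of cells given 10 nM GRP with 1 µM RC-3095 and 3 of cells given 10 nM GRP alone. Line 1064 has 12 libraries in all, since 3 mock-treated libraries (0.1% DMSO) and 3 libraries given 1 µM RC-3095 alone share its fit. Every cell of the line came from a female mouse and carried the genotype Tyr::NRASQ61K/°, Cdkn2a-/-, Tyr::CreA/° and Cdh1dF/dF, so mock-treated cells were mutant for NRAS, Cdkn2a and Cdh1 as well. The NRAS and Cre transgenes are driven by the tyrosinase promoter, which is active in the melanocyte lineage. The line is labelled receptor-positive and is a single line, so a result here describes 1064 cells and not ∆Ecad melanoma in general. Treatment lasted 4 h and followed 18 h of starvation in medium with 0.5% serum. The comparison asks which part of the response to GRP was absent when the receptor antagonist was present.

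GRP, gastrin-releasing peptide, is a ligand of the bombesin family that binds GRPR, a G-protein-coupled receptor. GRPR couples to Gq proteins, which activate phospholipase C and thereby calcium release and protein kinase C. Downstream, such receptors switch on immediate early transcription factors within minutes, feedback inhibitors after them, and genes read by SRF and by YAP and TAZ with TEAD factors. RC-3095 is a bombesin analogue peptide that occupies GRPR without activating it.

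Library totals in line 1064 ran from 20525837 to 32668855 counted reads, and from 23380148 to 30645998 in the 6 libraries compared. The floor of 3 counts stood at no more than 0.128 CPM (read counts relative to library size) in those 6 and covers counting error only. TMM scaling factors were 0.93 to 0.95 in the GRP libraries and 1.00 to 1.06 in the other 9. The sum of 15 melanocyte genes lay between 12500 and 26900 CPM with GRP and between 13200 and 28600 with GRP + RC, led by Tyrp1, a pigment enzyme. Leukocyte markers summed to 7.67 to 23.8 CPM with GRP and 7.43 to 24.7 with GRP + RC. Lyz2 led them, at 4.05 to 22.4 CPM over the 12 libraries, whereas Ptprc, Itgam, Cd3e and Adgre1 had no more than 3 counts in any library. The 6 keratinocyte markers summed to 0.502 to 0.813 CPM with GRP and 0.525 to 1.17 with GRP + RC. The 5 endothelial markers summed to 9.37 to 18.2 and 8.22 to 16 CPM, and the 7 fibroblast markers to 11 to 17.8 and 12.2 to 16, in the same order. Vwf (2.78 to 14.9 CPM over the 12 libraries) and Col1a1 (3.58 to 17.1) led these lists, whereas Kdr, Dcn and Lum had no more than 3 counts. Cdh1, the deleted E-cadherin gene, had at most 3 counts in any of the 12 libraries. The study describes the replicates of its experiments as independent biological ones, and the labels add nothing on what was repeated, so p-values measure the spread between these libraries of a single line.

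Adding RC to GRP lowered genes that respond to growth signals, matrix and plasminogen-activation genes and stress genes of the endoplasmic reticulum, and it raised a smaller group that included the melanocortin receptor Mc1r and the neuregulin receptor Erbb3. Of 13794 genes tested, 176 were called lower (1.28%) and 90 were called higher (0.652%) with GRP + RC than with GRP. Calls needed both an absolute log2 fold change above 1 and an adjusted p below 0.05 (Benjamini-Hochberg, over all tested genes) in a quasi-likelihood fit of edgeR that held the replicate number as a block. Each fold change is given with its standard error (SE). By the adjusted p alone, 1503 genes were lower (10.9%) and 1418 were higher (10.3%), and the median log2 fold change over all genes was 0.01. These shares of all genes are the background for the count of each list below. Among the called genes, the median log2 fold change was −1.36 for the lower group, whose most extreme value was −4.47, and 1.23 for the higher group, whose most extreme value was 2.50. All 3 same-numbered pairs of libraries moved the same way in 173 of the 176 lower genes and in 90 of the 90 higher genes. The genes were called on these same pairs, so this describes the calls and is no separate support. Because bulk RNA was measured, fewer cells of a type and less RNA per cell cannot be told apart.

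Libraries with the same replicate number deviated together from their treatment means, with correlations from 0.67 to 0.774 over the 3 GRP and GRP + RC pairs, and the number of called genes rests on taking that into account. Without the block, the same test called 2 genes lower, Sik1 and Dusp5, and 0 higher, with 749 genes lower and 627 higher at an unadjusted p under 0.05. Of the named genes below, Sik1 and Dusp5 alone stayed past the threshold without it. All 176 and all 90 genes kept their sign in that fit, with median log2 fold changes of −1.35 and 1.25. This follows from the design and is no separate support. Each replicate number holds every treatment, so the block acts on the spread far more than on the fold change. Leaving out replicate 1 gave 69 lower and 24 higher calls, leaving out replicate 2 gave 54 and 18, and leaving out replicate 3 gave 187 and 99. All 3 GRP + RC libraries lay below all 3 GRP libraries in 120 of the 176 lower genes, against 7.25% of all tested genes, and above them in 46 of the 90 higher genes, against 7.3% of all tested genes. Since the genes were called on these same libraries, the excess follows in part from that choice and only describes how far the groups overlap.

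**Figure D1:**
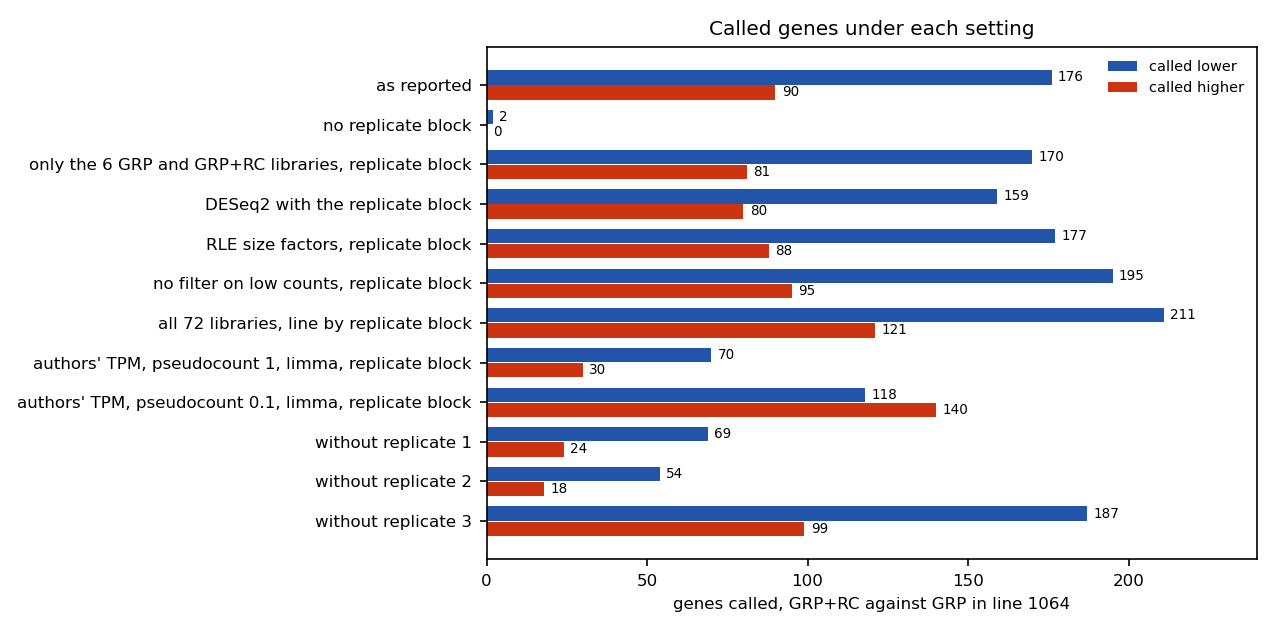
Number of genes called lower (blue bars) and higher (red bars) with GRP + RC than with GRP in line 1064, as reported and under 11 other settings of the analysis; the horizontal axis starts at 0. Without the replicate block 2 and 0 genes were called, against 176 and 90 with it.

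Grpr itself, the target of the antagonist, was higher with GRP + RC than with GRP. Grpr (ENSMUSG00000031364, chromosome X of GRCm38 from 163513904 to 163549677) stood at 417, 451 and 460 CPM, scaled by TMM, in the GRP libraries 1, 2 and 3, and at 659, 674 and 659 in the GRP + RC libraries. It was 851, 1130 and 688 CPM in the mock libraries and 693, 743 and 760 with RC alone. The GRP libraries were thus the lowest 3 of the 12, with no overlap with any other treatment. Its log2 fold change with GRP + RC was 0.58 (SE 0.120, adjusted p = 0.00854), under the fold threshold for a call, and the adjusted p was 0.114 without replicate 1, 0.231 without the block and 0.0463 and 0.00337 without replicates 2 and 3. Grp and the bombesin receptor Brs3 had 0 counts in every library, which allows a level of up to 0.146 CPM, and the neuromedin B receptor Nmbr had at most 4 counts. Nmb, the ligand of Nmbr, had 9 to 21 counts, and its log2 fold change of −0.28 did not pass (adjusted p = 0.631).

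Immediate early transcription factors, which are transcribed without new protein synthesis after a stimulus, were lower as a group. Of 26 measured, 8 were called lower and 0 higher (against 1.28% and 0.652% of all genes), 18 were lower by the adjusted p alone (against 10.9%), and the list's median log2 fold change was −0.77 beside 0.01 for all genes. The called genes were Fosl1, Fosb and Fosl2 of the AP-1 family, the orphan nuclear receptors Nr4a1, Nr4a2 and Nr4a3, Egr4 and Csrnp1. Without replicates 1, 2 and 3 in turn, 4, 5 and 9 members were called lower, and without the block 0.

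Fosb, an AP-1 subunit, stood at 13.3, 18.1 and 13.6 CPM with GRP and at 2.70, 4.92 and 3.03 with GRP + RC, beside 1.33, 1.18 and 2.79 in mock-treated cells. The 2 groups did not overlap, and the log2 fold change was −2.09 (SE 0.224, adjusted p = 0.000828). Nr4a2, a nuclear receptor with no known physiological ligand, stood at 127, 108 and 79.9 CPM with GRP and at 44.0, 33.9 and 21.2 with GRP + RC. The groups again did not overlap, with a log2 fold change of −1.69 (SE 0.181, adjusted p = 0.000803), while the mock libraries lay at 17.4, 15.1 and 18.2 CPM. Its relative Nr4a3 was more uneven, with 1290, 457 and 1140 CPM with GRP and 684, 129 and 239 with GRP + RC. The first GRP + RC library of Nr4a3 lay above the second GRP library, so the groups overlapped although each pair fell. Its log2 fold change was −1.66 (SE 0.405, adjusted p = 0.0169), with adjusted p = 0.0728 without replicate 1 and 0.0993 without replicate 2.

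Fosl1, another AP-1 subunit, had 10.9, 5.37 and 6.53 CPM with GRP and 2.0, 0.978 and 2.40 with GRP + RC, a log2 fold change of −2.13 (adjusted p = 0.00348, and 0.0626 and 0.0501 without replicates 1 and 2). Of its exon bases, 57.2% are overlapped by Ccdc85b on the opposite strand, which makes its count less certain. Fos, the founding AP-1 gene, had a log2 fold change of −0.96 (adjusted p = 0.00394), just short of the fold threshold. Egr1, a zinc finger factor, had 54.0, 13.8 and 76.7 CPM with GRP and 33.5, 10.5 and 77.9 with GRP + RC, and neither it (log2 fold change −0.36, adjusted p = 0.210, but −0.57 and 0.0117 without replicate 3) nor Egr2 (−0.13, adjusted p = 0.636) passed. In Egr1 the spread between replicate numbers within a treatment was wider than the step between treatments. Jun and Myc were at −0.06 and −0.18 (adjusted p = 0.740 and 0.249).

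**Figure D2:**
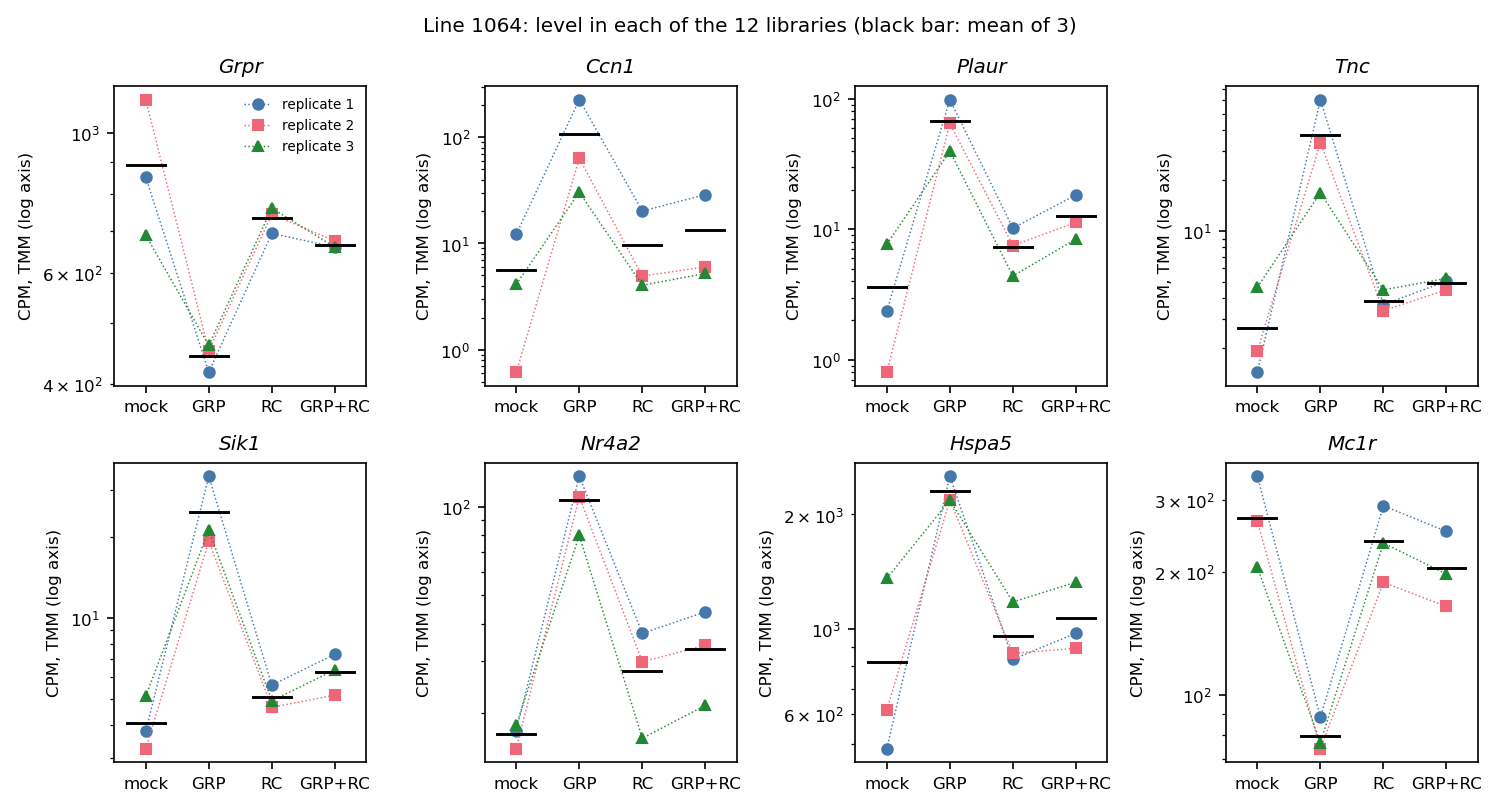
Level of 8 genes in each of the 12 libraries of line 1064, in TMM-scaled CPM on log axes, by treatment. Symbols and dotted lines mark the replicate number and black bars the mean of 3 libraries, and in Ccn1 the GRP + RC libraries run from 5.22 to 28.8 CPM, below the 30.4 to 226 of the GRP libraries.

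CREB target genes, which carry cAMP or calcium signals to transcription, included 4 called lower and 0 higher of 11 measured, against 1.28% and 0.652% of all genes. The list median was −0.45. Sik1, a kinase that feeds back on CREB coactivators, stood at 33.7, 19.3 and 21.2 CPM with GRP and at 7.31, 5.15 and 6.39 with GRP + RC. The groups were far apart, and the log2 fold change of −1.96 (SE 0.155, adjusted p = 0.000286) held in every replicate left out and without the block (adjusted p = 0.0420). Bdnf, a neurotrophin, had 29.2, 40.9 and 14.5 CPM with GRP and 5.83, 6.82 and 4.98 with GRP + RC, a log2 fold change of −2.20 (adjusted p = 0.00112), and 14.4% of its exon bases are overlapped by Gm45346 on the other strand. Nfil3, a basic leucine zipper repressor, was at −1.04 (adjusted p = 0.0289, and 0.111 and 0.145 without replicates 1 and 2). Dio2, which activates thyroid hormone, was called at −2.44 on 5 to 10 counts in the GRP + RC libraries, and its call was lost without any one of the replicates (adjusted p = 0.152, 0.0930 and 0.0563). The list held 3, 2 and 2 called genes without replicates 1, 2 and 3. Npas4, a calcium-responsive transcription factor that belongs to no list, had 10.4, 19.5 and 6.18 CPM with GRP and 2.67, 2.02 and 0.776 with GRP + RC, a log2 fold change of −2.69 (SE 0.378, adjusted p = 0.00238, and 0.0565 without replicate 2).

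The microRNA gene Mir212 was among the 10 called genes with the largest decrease. It lies on chromosome 11 of GRCm38 from 75173388 to 75173478, beside Mir132, and both are known as targets of CREB. Its 3 GRP libraries held 50, 13 and 52 counts and its GRP + RC libraries 7, 2 and 6, a log2 fold change of −3.08 (SE 0.353, adjusted p = 0.000962). The groups did not overlap, but the lower group sat near the floor. The libraries were made from polyadenylated RNA, so these reads come from the longer precursor transcript and do not measure the mature microRNAs. The mature 3′ arms of the 2 neighbours, from RefSeq on GRCm38.p6, share their seed (bases 2 to 8, in capitals) and are shown because a reader needs them to see which target sequence the locus addresses.
mmu-miR-212-3p: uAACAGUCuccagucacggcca
mmu-miR-132-3p: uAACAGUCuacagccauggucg

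Regulators of G-protein signalling (RGS), which shorten the active life of G proteins, included 2 called lower of 10 measured, against 1.28% of all genes. The list median was −0.12. Rgs2, which acts on Gq, had 51.6, 48.5 and 56.8 CPM with GRP and 18.5, 15.1 and 13 with GRP + RC, a log2 fold change of −1.75 (SE 0.300, adjusted p = 0.00439, and 0.0567 without replicate 2). Rgs16 had 8.38, 14.3 and 3.18 CPM with GRP and 1.71, 3.52 and 0.882 with GRP + RC. All 3 pairs of Rgs16 fell but the groups overlapped, and the log2 fold change of −2.05 (SE 0.327, adjusted p = 0.00331) was lost without replicate 1 or 2 (adjusted p = 0.0572 and 0.0565). Rgs14 was higher by the adjusted p alone (0.76, adjusted p = 0.00542), as were 10.3% of all genes. In all, 1, 0 and 2 of the list were called without replicates 1, 2 and 3.

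Feedback inhibitors of the ERK pathway moved in part. Of 20 measured, 2 were called lower and 0 higher, against 1.28% and 0.652% of all genes. By the adjusted p alone 6 were lower and 2 higher, against 10.9% and 10.3%, so the share that was higher was near that of all genes. The list's median was −0.17. Dusp5, a nuclear phosphatase of ERK, had 48.6, 40.7 and 42.4 CPM with GRP and 22.7, 20.8 and 21.2 with GRP + RC. The 2 groups were tight and apart, with a log2 fold change of −1.03 (SE 0.0906, adjusted p = 0.000381, and 0.0244 without the block), and it stayed between −0.98 and −1.06 with a replicate left out, short of the fold threshold without replicate 1. Of its exon bases, 22.1% are overlapped by AC137853.2 on the other strand. Errfi1, an inhibitor of the EGF receptor, had 189, 71.1 and 123 CPM with GRP and 40.8, 44.3 and 70.2 with GRP + RC, a log2 fold change of −1.32 (adjusted p = 0.0131) that became −0.75 without replicate 1 and lost its call without replicate 2 (adjusted p = 0.0635). Dusp6, the cytoplasmic ERK phosphatase, was at −0.20 (adjusted p = 0.188) and Spry4 at 0.08 (adjusted p = 0.653), whereas Spry1, of the same Sprouty family, was higher by the adjusted p alone (0.82, adjusted p = 0.00252).

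Targets of YAP and TAZ, the coactivators that bind DNA through TEAD factors, were lower at the level of a few strong genes. Of 20 measured, 3 were called lower and 0 higher, against 1.28% and 0.652% of all genes. By the adjusted p alone 11 were lower and 2 higher, against 10.9% and 10.3%, and the list's median was −0.53. Ccn1 (ENSMUSG00000028195, chromosome 3 of GRCm38 from 145646976 to 145649981), a secreted matricellular protein, stood at 226, 63.3 and 30.4 CPM with GRP and at 28.8, 6.03 and 5.22 with GRP + RC. Mock libraries held 12.2, 0.613 and 4.13 CPM and RC libraries 20.2, 4.93 and 4.04. Replicate 1 was the highest in every treatment, and no GRP + RC library of Ccn1 reached the lowest GRP library. The log2 fold change of Ccn1 was −2.99 (SE 0.312, adjusted p = 0.000779), between −2.79 and −3.17 with a replicate left out.

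Ccn2, its relative, had 94.2, 36.8 and 8.83 CPM with GRP and 14.7, 5.87 and 3.46 with GRP + RC, so the groups overlapped while every pair fell. Its log2 fold change was −2.36 (SE 0.298, adjusted p = 0.00154, and 0.0534 without replicate 1), and 23.2% of its exon bases overlap Gm15270 on the opposite strand. Lats2, the kinase that restrains YAP, had 429, 146 and 163 CPM with GRP and 180, 73.4 and 61.9 with GRP + RC, with overlapping groups and a log2 fold change of −1.21 (adjusted p = 0.00434, and 0.0661 without replicate 1). Of its exon bases, 42.4% are overlapped by Gm49361 on the same strand. The remaining members past the adjusted p had smaller changes, such as the receptor kinase Axl at −0.96 (adjusted p = 0.00624) and the YAP regulator Amotl2 at −0.66 (adjusted p = 0.00358). Without replicates 1, 2 and 3 in turn, 1, 3 and 4 of the list were called.

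Genes of the actin cytoskeleton and SRF, the factor that reads actin dynamics, were all below 0. Of 14 measured, 3 were called lower and 0 higher, against 1.28% and 0.652% of all genes. By the adjusted p alone 9 were lower, against 10.9%, and the median was −0.80. Srf itself had 289, 149 and 129 CPM with GRP and 134, 74.6 and 70.5 with GRP + RC, with overlapping groups and a log2 fold change of −1.0 (adjusted p = 0.00304, and 0.0545 without replicate 2) at the very edge of the fold threshold. Tpm1, a tropomyosin, had 875, 735 and 665 CPM with GRP and 412, 296 and 382 with GRP + RC, with no overlap and a log2 fold change of −1.09 (adjusted p = 0.00355, and 0.0591 and 0.0547 without replicates 1 and 2). Cnn2, a calponin with overlapping groups, was at −1.06 (adjusted p = 0.0130, and 0.103 without replicate 1). Vcl, Zyx and Flna, which link actin to adhesions, were at −0.92, −0.80 and −0.80. No member was called without replicate 1, without replicate 2 or without the block, and 4 were called without replicate 3.

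Promoter sequences are shown for 5 called genes whose upstream 120 bases hold a motif of TEAD, AP-1 or SRF, factors that read the signals listed above. They come from RefSeq on GRCm38.p6, run 5′ to 3′ on the gene's strand and end before the annotated start of transcription. Capitals mark a TEAD motif (GGAATG, here as CATTCC on the other strand) in Ccn1, an AP-1 motif (TGANTCA) in Plaur, a receptor described below, and CArG boxes, the SRF motif, in Srf, Dusp5 and Cnn2. The stretches lie at chr3:145649986-145650105 (minus strand), chr7:24462363-24462482 (plus), chr17:46556176-46556295 (minus), chr19:53528989-53529108 (plus) and chr10:79988464-79988583 (plus), in this order.
Ccn1: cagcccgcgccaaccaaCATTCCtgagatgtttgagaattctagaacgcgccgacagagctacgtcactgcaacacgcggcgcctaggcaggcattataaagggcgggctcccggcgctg
Plaur: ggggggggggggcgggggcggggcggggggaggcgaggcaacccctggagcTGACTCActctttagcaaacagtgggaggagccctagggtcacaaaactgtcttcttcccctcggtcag
Srf: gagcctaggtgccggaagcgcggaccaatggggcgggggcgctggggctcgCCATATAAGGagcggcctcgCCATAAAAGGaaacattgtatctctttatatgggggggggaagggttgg
Dusp5: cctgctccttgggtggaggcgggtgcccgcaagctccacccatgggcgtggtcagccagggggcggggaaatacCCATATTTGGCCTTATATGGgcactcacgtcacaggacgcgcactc
Cnn2: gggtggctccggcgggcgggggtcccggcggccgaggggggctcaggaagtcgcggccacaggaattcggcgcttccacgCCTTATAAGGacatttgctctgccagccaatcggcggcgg

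Over promoter windows of 300 bases (250 before to 50 after each start), 128 of the 176 lower genes and 59 of the 90 higher genes were matched to RefSeq by symbol. A CArG box was present in 8 of the 128 (6.25%) and 0 of the 59, against 1.58% of the 9960 tested genes that matched and 1.63% of all 32851 windows. The TEAD motif was present in 25.0% of lower, 13.6% of higher and 14.1% of tested genes (14.7% of all windows). The AP-1 motif was present in 12.5%, 5.08% and 5.79% (7.81% of all windows). The CREB motif TGACGTCA was present in 4.69%, 1.69% and 3.72% (1.79% of all windows). Motifs were searched on both strands, a window with motifs of several kinds counts for each, and these shares are descriptions with no test and do not show binding.

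Plasminogen activation and matrix genes, which open the matrix around cells, were the list with the most called members. Of 22 measured, 9 were called lower and 0 higher, against 1.28% and 0.652% of all genes. By the adjusted p alone 12 were lower and 2 higher, against 10.9% and 10.3%, and the median was −0.54. Among them were the protease urokinase (Plau), its receptor (Plaur), the urokinase inhibitor Serpinb2, the stromelysin Mmp10 and its inhibitor Timp1, and the matrix proteins Tnc and Thbs1, so activators and inhibitors fell together. Without replicates 1, 2 and 3 in turn, 5, 2 and 9 members were called.

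Plaur (ENSMUSG00000046223, chromosome 7 of GRCm38 from 24462484 to 24475968) had 98.5, 64.7 and 39.7 CPM with GRP and 18.3, 11.3 and 8.40 with GRP + RC, beside 2.37, 0.802 and 7.68 in mock-treated cells. The 2 groups did not overlap, and the log2 fold change was −2.40 (SE 0.442, adjusted p = 0.00557, and 0.0645 and 0.0579 without replicates 1 and 2). Tnc, or tenascin C, had 60.6, 33.6 and 16.9 CPM with GRP and 5.02, 4.47 and 5.22 with GRP + RC. Its GRP + RC libraries were close to one another, while the mock libraries lay at 1.44, 1.93 and 4.62 CPM. The log2 fold change of Tnc was −2.87 (SE 0.430, adjusted p = 0.00287, and 0.0577 without replicate 2).

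Serpinb2, an inhibitor of urokinase, fell the most of all named genes, on low counts. It had 167, 69 and 40 counts with GRP and 7, 6 and 1 with GRP + RC, that is 6.36, 3.17 and 1.41 CPM against 0.225, 0.196 and 0.0353. Its log2 fold change was −4.47 (SE 0.498, adjusted p = 0.000949), and 12.4% of its exon bases are overlapped by Serpinb10 on the same strand. Mmp10 had 30, 72 and 7 counts with GRP and 7, 10 and 0 with GRP + RC, so its groups overlapped and its call (−3.01, adjusted p = 0.00809) was lost without replicate 1 (adjusted p = 0.0534) and under DESeq2 (0.208), and without replicate 2 it was too low to be tested. Tgfbi, a matrix protein outside the list, was called at −2.92 (adjusted p = 0.00840), but its 3 GRP libraries held 4, 101 and 25 counts against 4, 11 and 4 with GRP + RC, and without replicate 2 it was too low to be tested.

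Among the other genes with the largest decrease, Fgd3, an exchange factor for CDC42, had 67, 31 and 13 counts with GRP and 8, 3 and 2 with GRP + RC, and its log2 fold change of −3.29 (adjusted p = 0.00171) became −0.67 on the authors' TPM with a pseudocount of 1. Gpr35, an orphan receptor, was called at −2.78 (adjusted p = 0.00308, and 0.0591 and 0.0561 without replicates 1 and 2) with overlapping groups.

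Secreted factors moved in part. Of 13 growth factors and peptide hormones measured, 3 were called lower (Bdnf, Nppb and Stc1) and 0 higher, against 1.28% and 0.652% of all genes. By the adjusted p alone 5 were lower and 1, Vegfc, was higher, against 10.9% and 10.3%, and the median was −0.34. Nppb, which encodes a natriuretic peptide, had 215, 90.3 and 54.8 CPM with GRP and 56.4, 19.8 and 25.5 with GRP + RC (log2 fold change −1.81, adjusted p = 0.0128, and 0.0827 and 0.125 without replicates 1 and 2). Stc1, a glycoprotein hormone of calcium and phosphate balance, had 154, 88.7 and 125 CPM with GRP and 58.9, 29.2 and 35.8 with GRP + RC, without overlap (log2 fold change −1.58, adjusted p = 0.0209, and 0.0846 and 0.124 without replicates 1 and 2). The list held 1, 2 and 3 called genes without replicates 1, 2 and 3. Of 11 IL-6 family cytokines, receptors and chemokines, Clcf1 was the one called and the one past the adjusted p, with 15.5, 12.6 and 10.0 CPM with GRP and 3.8, 2.22 and 2.82 with GRP + RC, a log2 fold change of −2.13 (SE 0.248, adjusted p = 0.000962), and 8.17% of its exon bases are overlapped by AC109138.7 on the same strand. Lif, of the same family, had 47.5, 61.2 and 48.9 CPM with GRP and 24.6, 57.4 and 38 with GRP + RC, and its log2 fold change of −0.48 did not pass (adjusted p = 0.217).

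The EGF family was the one list with calls in both directions. Of 7 measured, the ligands Hbegf and Btc were called lower, and the receptor Erbb3 and its ligand family member Nrg2 were called higher. Over all genes 1.28% were called lower and 0.652% higher, and the list median was 0.36. Hbegf had 17.9, 15.3 and 11.8 CPM with GRP and 6.47, 6.75 and 6.92 with GRP + RC, a log2 fold change of −1.15 (adjusted p = 0.00323, and 0.0571 and 0.0564 without replicates 1 and 2). Btc was at −1.01 (adjusted p = 0.00967, and 0.166 without replicate 2), with overlapping groups. Erbb3, a receptor that pairs with ERBB2 and is prominent in the melanocyte lineage, had 83.5, 53.6 and 69.1 CPM with GRP and 180, 166 and 126 with GRP + RC. The GRP + RC libraries were above all GRP libraries and within the 134 to 335 of the mock libraries or just below, and the log2 fold change was 1.18 (SE 0.186, adjusted p = 0.00318, and 0.0579 without replicate 2). Nrg2 had 1.30, 2.52 and 1.87 CPM with GRP and 3.99, 4.27 and 3.85 with GRP + RC, a log2 fold change of 1.11 (adjusted p = 0.0198, and 0.198 and 0.0567 without replicates 1 and 2).

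Stress genes of the endoplasmic reticulum and of ATF4, the factor that answers unfolded protein and amino acid shortage, were all below 0. Of 14 measured, 5 were called lower and 0 higher, against 1.28% and 0.652% of all genes. By the adjusted p alone 10 were lower, against 10.9%, and the median was −0.80. Hspa5 (ENSMUSG00000026864, chromosome 2 of GRCm38 from 34771970 to 34777547), which encodes the chaperone BiP, had 2520, 2180 and 2180 CPM with GRP and 977, 893 and 1330 with GRP + RC. No GRP + RC library reached a GRP library, while the mock libraries were spread from 487 to 1360. Its log2 fold change was −1.16 (SE 0.225, adjusted p = 0.00687, and 0.0569 and 0.0972 without replicates 1 and 2). Herpud1, which works in degradation of misfolded proteins, had 131, 90.1 and 63.5 CPM with GRP and 42.2, 28 and 34.5 with GRP + RC, a log2 fold change of −1.43 (SE 0.232, adjusted p = 0.00351, and 0.0679 without replicate 2). Chac1, Trib3 and Asns, which are ATF4 targets, were at −1.56, −1.20 and −1.05 (adjusted p = 0.0128, 0.0171 and 0.0196), and Atf4 itself at −0.64 (adjusted p = 0.00790). The list held 1, 0 and 7 called genes without replicates 1, 2 and 3, and the cause of this range was not tested. The RefSeq promoter window of Hspa5 (GRCm38.p6) holds a match to the endoplasmic reticulum stress element on the plus strand at chr2:34772025-34772043, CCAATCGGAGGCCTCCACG, a motif found in 0.119% of all promoter windows.

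Other lists moved without a call. NF-κB feedback genes had 0 of 12 called but 6 lower by the adjusted p alone (against 10.9% of all genes), with a median of −0.44. Among the 6 were the precursor subunit Nfkb2 at −0.74 (adjusted p = 0.000779) and Relb at −0.82 (adjusted p = 0.00399). Genes of DNA replication and mitosis had 0 of 14 called but 11 higher by the adjusted p alone (against 10.3% of all genes), with a median of 0.46, among them the kinesin Cenpe at 0.84 (adjusted p = 0.00304) and the proliferation antigen Mki67 at 0.72 (adjusted p = 0.00266). In 0 of these 14 did all 3 GRP + RC libraries lie above all 3 GRP libraries, against 7.3% of all genes. Genes of Gq, phospholipase C and protein kinase C (15 measured), calcineurin and NFAT (11), entry into the cell cycle (12), cholesterol synthesis (16), interferon response (12) and hypoxia and glycolysis (14) had 0 called, with medians from −0.13 to 0.19. Rcan1, a calcineurin feedback gene, was at −0.48 (adjusted p = 0.0239), which no replicate left out kept under 0.05 (0.0646, 0.0799 and 0.0662).

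**Figure D3:**
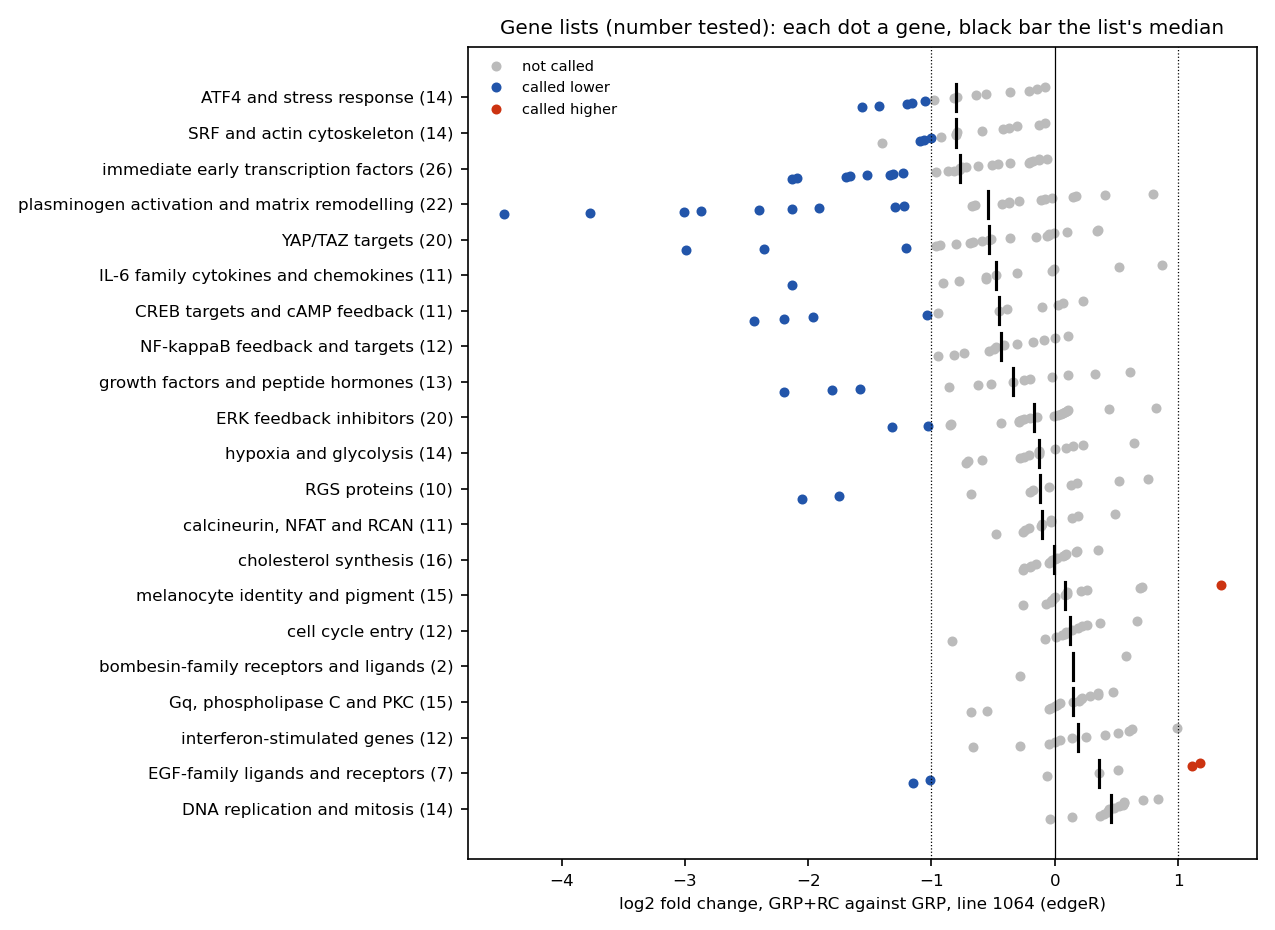
Log2 fold change of GRP + RC against GRP in line 1064 for every tested gene of 21 lists, with the number tested in brackets. Blue and red dots are genes called lower and higher, grey dots genes not called, black bars the list medians and dotted lines the fold threshold, and the lists of ATF4, SRF and immediate early genes have the lowest medians, −0.80, −0.80 and −0.77.

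Of 15 melanocyte identity genes measured, 1 was called higher and 0 lower (against 0.652% and 1.28% of all genes), with a median of 0.08. Mc1r (ENSMUSG00000074037, chromosome 8 of GRCm38 from 123407107 to 123410744), the melanocyte receptor for melanocyte-stimulating hormone, had 88.4, 74.0 and 76.6 CPM with GRP and 252, 165 and 198 with GRP + RC. The mock libraries were at 344, 267 and 206 CPM and the RC libraries at 291, 189 and 236, so the 3 GRP libraries were the lowest of the 12. Its log2 fold change was 1.35 (SE 0.117, adjusted p = 0.000381), between 1.27 and 1.43 with a replicate left out, and 17.9% of its exon bases are overlapped by Gm38092 on the other strand. Mitf, the master factor of the lineage, was at −0.01 (SE 0.156, adjusted p = 0.975), Tyr at 0.26 (adjusted p = 0.0190), Tyrp1 at −0.26 (adjusted p = 0.00963) and Kit, the stem cell factor receptor, at 0.71 (adjusted p = 0.0163).

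The called genes with the largest increase were of mixed function. Lrrn3, a leucine-rich repeat neuronal protein, had 2.97, 13.5 and 5.72 CPM with GRP and 8.21, 49.9 and 17.9 with GRP + RC, so the groups overlapped, yet each pair rose by a like amount and the log2 fold change was 1.70 (SE 0.130, adjusted p = 0.000286). B3galt5, a galactosyltransferase, had 20.1, 79.1 and 60.8 CPM with GRP and 62.6, 234 and 172 with GRP + RC, with the same pattern (log2 fold change 1.56, SE 0.127, adjusted p = 0.000301). Both genes were highest in replicate 2 in every treatment.

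Bahcc1, a chromatin protein, had 10.4, 16.2 and 15.7 CPM with GRP and 36.1, 64.8 and 46.2 with GRP + RC, without overlap (log2 fold change 1.77, adjusted p = 0.000949). Pik3ip1, an inhibitor of PI3 kinase, was at 1.61 (adjusted p = 0.000962) and Rnf144a, a ubiquitin ligase, at 1.96 (adjusted p = 0.00190). Cyp7a1, the rate-limiting enzyme of bile acid synthesis in liver, had 1.14, 1.70 and 0.847 CPM with GRP and 3.64, 12.7 and 3.95 with GRP + RC, a log2 fold change of 2.35 (SE 0.351, adjusted p = 0.00285, and 0.0652 without replicate 2). Kcna2, a voltage-gated potassium channel, showed the largest increase at 2.50 (SE 0.448, adjusted p = 0.00514, and 0.0593 and 0.0625 without replicates 1 and 2), on 20, 6 and 6 counts with GRP and 95, 83 and 40 with GRP + RC. Sp5, a Wnt-responsive factor, was at 1.92 (adjusted p = 0.0185), E2f2, a cell-cycle factor, at 1.75 (adjusted p = 0.00545) and Scara5, a ferritin receptor, at 1.57 (adjusted p = 0.00711), and these 3 lost their call without replicate 1 (adjusted p = 0.0572, 0.0824 and 0.0591) or without replicate 2 (0.209, 0.0579 and 0.0825).

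The remaining treatments of line 1064 place these values, and since the contrasts share libraries each is given only as its own value. Over the 176 lower genes the median log2 fold change was 2.04 for GRP against mock, 0.61 for GRP + RC against mock and 0.40 for RC against mock. Over the 90 higher genes the same medians were −1.70, −0.42 and −0.34. GRP + RC against mock called 0 of 13794 genes, with 2449 at an unadjusted p under 0.05 and a smallest adjusted p of 0.142 by edgeR's quasi-likelihood test, and RC against mock called 0, with 1245 and a smallest adjusted p of 0.539. Both zeros changed when replicate 3 was left out: GRP + RC against mock then called 146 genes and RC against mock 70. GRP + RC against RC, added after the data were seen, called 0 genes, with 209 at an unadjusted p under 0.05 and a smallest adjusted p of 1. It called 0 again without any one of the replicates and without the block. These zeros do not show that GRP changed nothing in the presence of RC. Npas4, for instance, was 0, 0.0472 and 0.364 CPM in mock libraries, 1.46, 1.68 and 0.348 with RC alone and 2.67, 2.02 and 0.776 with GRP + RC, so in this gene the RC libraries 1 and 2 stood nearer to the GRP + RC libraries than to mock.

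Line 1057 has the same genotype and its own Grpr, and there the change from GRP to GRP + RC was smaller for several genes. How far GRP alone moved these genes in 1057 was not tested here, so these differences do not measure how well RC blocked GRP. Most genes given here were named for their change in 1064, which in part makes it the larger. Of 15090 genes tested over the 24 libraries of both lines, 88 (0.583%) had a different GRP + RC against GRP change, 55 more negative and 33 more positive in 1064. In 1057 alone, 106 genes were called lower and 37 higher. Herpud1 fell in 1064 and was at 0.00 in 1057, a difference of −1.43 (SE 0.243, adjusted p = 0.00245, the interaction term of edgeR). Sik1 was at −1.97 in 1064 and −0.61 in 1057 (difference −1.36, adjusted p = 0.000104), and Rgs2 at −1.75 and −0.23 (difference −1.52, adjusted p = 0.00519). Ccn2 was at −2.38 and −0.55 (difference −1.84, adjusted p = 0.00287), whereas the differences of Ccn1 (−1.12, adjusted p = 0.0536), Tnc (−1.35, adjusted p = 0.0770) and Plaur (−1.21, adjusted p = 0.123) did not pass. Mc1r was at 1.34 in 1064 and 0.26 in 1057 (difference 1.08, adjusted p = 9.41e-05), on mean levels of 80.4 and 206 CPM in 1064 and 331 and 397 in 1057 with GRP and with GRP + RC. Without the block 1 gene was called for a difference.

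The line 1014-Grpr, Tyr::NRASQ61K/° melanoma cells given Grpr from a CMV promoter, had larger decreases from GRP to GRP + RC in several genes. The paper describes 1014 as a female line that expresses E-cadherin. It thus differs from 1064 in Cdh1 status, in the origin of Grpr and in being a separate line, and these cannot be told apart. The genotype given above for 1014-Grpr also names neither Cdkn2a nor the Cre transgene. How far GRP alone moved these genes in 1014-Grpr was not tested here. Of 14977 genes tested over both lines, 67 (0.447%) had a different change, 19 more negative and 48 more positive in 1064. Lif was at −0.48 in 1064 and −3.49 in 1014-Grpr, a difference of 3.01 (SE 0.358, adjusted p = 0.000133). Rgs16 was at −2.07 and −4.25 (difference 2.19, adjusted p = 0.00151), Egr2 at −0.14 and −2.27 (difference 2.14, adjusted p = 0.00590) and Prdm1, a transcriptional repressor, at −0.19 and −2.95 (difference 2.76, adjusted p = 0.0243, and 0.0559 without replicate 2). Grpr rose by 0.58 in 1064, and was at −1.27 in 1014-Grpr, where reads of the introduced gene and of the cells' own gene cannot be told apart (difference 1.85, SE 0.166, adjusted p = 5.68e-06). Ccn1, Tnc and Plaur did not pass for a difference (0.42, 0.58 and −0.05, adjusted p = 0.552, 0.615 and 0.993). Without the block 2 genes were called for a difference.

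In the vector-control lines, labelled receptor-negative, the same contrast called 0 of 14188 genes in 1181-Ctrl and 0 of 13755 in 1014-Ctrl by edgeR's quasi-likelihood test, with 820 and 152 genes at an unadjusted p under 0.05. The paper describes both parent lines as positive for E-cadherin, 1181 being male and 1014 female. Of the 176 genes lower in 1064, 104 and 107 were tested there, with median log2 fold changes of 0.01 and 0.00. Mock library 2 of 1014-Ctrl, labelled female, held 1557 reads of the Y-linked gene Ddx3y against 0 in the other 11 libraries, and it shares that fit. Without that library 0 genes were called, but the smallest adjusted p of the same test was then 7.81e-05, so this 0 rests on the fold threshold. Leaving out replicate 2 in every treatment gave 2 called genes. In 1181-Grpr, which was given the same introduced Grpr as 1014-Grpr, the contrast called 0 of 14506 genes, with 658 at an unadjusted p under 0.05. The smallest adjusted p was 0.542, and the median was −0.18 over the 118 tested genes of the 176. How far GRP alone moved genes in 1181-Grpr was not tested here, so this 0 does not measure how well RC blocked GRP.

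**Figure D4:**
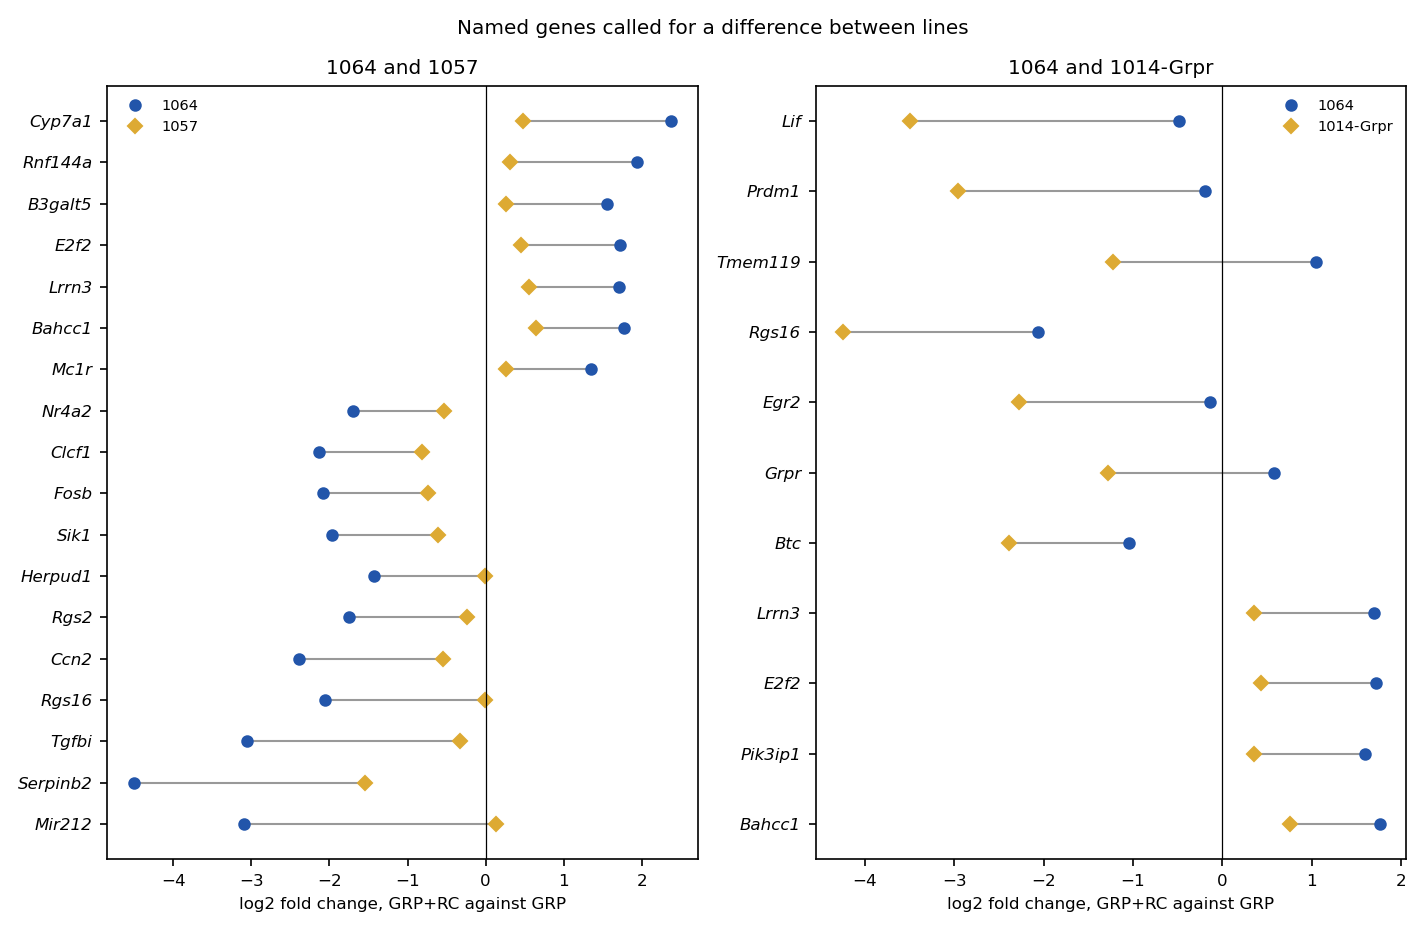
Log2 fold change of GRP + RC against GRP for genes named in the text and tested in line 1064 whose change was called different in 1057 (left) or 1014-Grpr (right), with 1064 as blue circles and the other line as yellow diamonds. On the left, values in 1064 run from Serpinb2 at −4.50 to Cyp7a1 at 2.37, and since most genes shown were named for their change in 1064, their larger distance from 0 there follows in part from that choice.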

How the data were processed

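RNA was measured in 72 libraries of 6 mouse melanoma lines, prepared from polyadenylated RNA with a stranded kit. The labels gave each library its line, treatment and replicate number. The submitters' processing notes name FastQC 0.11.5, STAR and the builds mm10 and GRCm38.p5, and whether counting used strand is not given in the sources used here. The authors deposited raw counts per gene without normalization, which were used for every result. The authors also deposited TPM values, used as an alternative only, and 12 TPM columns of line 1057, written with a decimal comma, were not used. Symbols were matched for 99.6% of the 50600 listed genes, and positions and exon overlaps are from GENCODE release M21 on the same build, which is later than the authors' release.

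After filterByExpr and TMM scaling, genes went through the quasi-likelihood test of edgeR 4.0.16 in R 4.3.3, with treatment and replicate number in the design, on the 12 libraries of line 1064, or on 24 libraries for the differences between lines. Standard errors were derived from the fold change and its F statistic. The block was used because same-numbered libraries deviate together from their treatment means, with correlations from 0.564 to 0.822 over 18 pairs. No replicates were copies (chi-square per degree of freedom 63.73 to 124.97). The steps were tested on simulated data. Alternatives were no block, the 6 libraries alone, DESeq2 1.42.0, other size factors, no filter, the adjusted p alone, all 72 libraries, TPM with pseudocounts of 1 and 0.1 in limma 3.58.1, and each replicate left out. Promoters and microRNAs are from RefSeq, and plots used matplotlib 3.10.9.

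The comparison, its gene lists and the genes named were chosen with earlier results of these data known. Genes named are the 10 with the largest change in each direction (all 3 pairs moving alike, a mean of at least 1 CPM in the higher group, no predicted model), up to 4 called members of each list, the 5 largest called differences per line, and receptor, ligand and feedback genes whatever their result. The differences needed a mean of at least 1 CPM in any group of either line and no predicted model, but not pairs that moved alike. Other list members are named as examples. Some genes that the rule would name are not reported here.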

Additional observations from a re-analysis of the deposited data

Results flagged for a closer look

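The change with GRP + RC against GRP was tested for a difference between lines, and 88 genes differed between 1064 and 1057 and 67 between 1064 and 1014-Grpr. Genes named in the text follow as log2 fold change in 1064 minus that in the other line, each past an adjusted p of 0.05 in edgeR's quasi-likelihood test with the replicate block.

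Against 1057, genes more negative in 1064 were Mir212 (−3.22), Serpinb2 (−2.95), Tgfbi (−2.73), Rgs16 (−2.04), Ccn2 (−1.84), Rgs2 (−1.52), Herpud1 (−1.43), Sik1 (−1.36), Fosb (−1.35), Clcf1 (−1.31) and Nr4a2 (−1.16). Genes more positive in 1064 were Cyp7a1 (1.90), Rnf144a (1.63), B3galt5 (1.29), E2f2 (1.27), Lrrn3 (1.16), Bahcc1 (1.12) and Mc1r (1.08). Msmp (4.91) and Svep1 (4.57) also passed, but in 1064 both had 0 counts in the 3 GRP libraries and at most 6 and 4 counts in the GRP + RC libraries, so no fold change is given for them there, and both calls were lost without replicate 1 (adjusted p = 0.106 and 0.0817) and without replicate 2 (adjusted p = 0.122 and 0.0781), and that of Svep1 also without replicate 3 (0.0839). All exon bases of Msmp are overlapped by Rgp1 on the opposite strand. The difference of Tgfbi was lost without replicate 2 (adjusted p = 0.155), and those of E2f2 and Mir212 without replicate 1 (0.0839 and 0.0557).

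Against 1014-Grpr, 19 of the 67 genes were more negative in 1064 and 48 more positive. All 11 named genes were more positive, but the naming rule picked them, so they do not describe all 67. They were Lif (3.01), Prdm1 (2.76), Tmem119 (2.27), Rgs16 (2.19), Egr2 (2.14), Grpr (1.85), Btc (1.34), Lrrn3 (1.34), E2f2 (1.28), Pik3ip1 (1.25) and Bahcc1 (1.00). The differences of Bahcc1, Lrrn3 and Prdm1 were lost without replicate 2 (adjusted p = 0.0559, 0.0516 and 0.0559) and those of Btc and E2f2 without replicate 1 (0.0648 and 0.119). Tmem119, a membrane protein, rose in 1064 (1.06, adjusted p = 0.00304, but 0.0563 without replicate 2, and a log2 fold change of 0.95 without replicate 3) and fell in 1014-Grpr (−1.22, adjusted p = 0.0333).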

How the results depend on the processing

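The replicate block decides how many genes are called. Without it, GRP + RC against GRP in 1064 called 2 genes lower and 0 higher instead of 176 and 90, GRP against mock called 320 instead of 900, and the differences from 1057 and 1014-Grpr called 1 and 2 genes instead of 88 and 67. By the adjusted p alone 1503 and 1418 genes passed. On the authors' TPM, 70 and 30 were called with a pseudocount of 1, and 140 were called higher with 0.1. TPM with 0.1 moved the median of all genes to 0.11. Depth limits the low genes, on which a pseudocount acts most. With each replicate left out, calls ranged from 54 to 187 lower and from 18 to 99 higher, from 599 to 1216 for GRP against mock, from 0 to 146 for GRP + RC against mock, from 0 to 70 for RC against mock, and from 0 to 2 in 1014-Ctrl. The cause of these ranges was not tested. Under the remaining settings, namely the 6 libraries alone, DESeq2, other size factors, no filter and all 72 libraries, counts stayed within 1.5 times. No named gene past the threshold changed sign under any setting, but all settings reuse the same libraries. Of 54 named genes past the adjusted p, 25 were lost without replicate 1, 31 without replicate 2, 2 without replicate 3 and 52 without the block. Of 32 named differences between lines, 31 were lost without the block.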
